A study of Homo sapiens with 6 samples.

Results

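The G2 and M phase genes described here are 34 human genes whose RNA is made late in the cell cycle and whose products carry a cell into and through mitosis. They were taken by gene symbol from a list of cyclins, mitotic kinases, checkpoint proteins, kinesins and other division proteins, and each symbol was matched to 1 row through its Ensembl identifier. All 34 were found among the 57820 human gene rows of the expression table. RNA came from 6 samples of the established colorectal cancer line HCT116, which is human, with 3 samples of the unmodified line (WT) and 3 of DKO1, an HCT116 derivative in which the submitters describe DNMT1 and DNMT3B, both DNA methyltransferase genes, as knocked out. Both lines were grown in the same serum-supplemented McCoy's medium, no agent or time course is given, and DKO1 is 1 derived line, so the loss of the methyltransferases and other differences between the lines cannot be told apart. Values are TPM, the usual length-corrected unit of RNA level, which is an estimated transcript abundance divided by gene length and expressed as a share of each sample's total, from libraries selected for messenger RNA.

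Cells enter mitosis when cyclin B binds the kinase CDK1 and CDC25 phosphatases strip inhibitory phosphates from it. Aurora and Polo kinases then drive spindle assembly, the spindle checkpoint holds back the anaphase-promoting complex (APC/C) until every chromosome is attached, and cytokinesis proteins split the cell. In most cycling cells the genes for these proteins are transcribed together: a complex called MuvB, bound to promoter elements known as CHR, keeps them low in resting and early cycle cells as part of the DREAM complex and helps to switch them on late in the cycle together with MYBL2 and FOXM1. Because the RNA of a culture averages over cells in all phases, a lower level in fewer dividing cells and less RNA in each dividing cell cannot be told apart.

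RefSeq promoter windows on GRCh38.p14, from 250 bases before to 50 after a start site, were found for 27 of the 34 genes, in 36 windows. A CHR, searched as TTTGAA or TTCGAA on either strand, was present in 24 of these 36 windows, which is 66.7%, against 16.4% of all 35116 windows of the same length. CCAAT on either strand, a motif bound by NF-Y and common in this gene class, was in 75.0% of the members' windows and 34.6% of all. GGCGC on either strand, a core of sites bound by E2F proteins, was in 80.6% and 48.6%. Matches of different motifs could share bases and were counted separately. The members' windows held a median of 24 CpG dinucleotides, the bases that DNMT1 and DNMT3B methylate, against 14 over all windows. Methylation was not analysed here. The sequences below are the 250 bases before the start of the 4 genes that passed the main expression test. These genes were chosen by that test and not by their motifs. The sequences run 5′ to 3′ on the gene's own strand, with CHR and CCAAT matches on either strand in capitals. They lie at chr5:138331805-138332054 on the minus strand for CDC25C, chr1:44739587-44739836 on the plus strand for KIF2C, chr2:110678064-110678313 on the minus strand for BUB1 and chr4:120066849-120067098 on the minus strand for MAD2L1.
CDC25C: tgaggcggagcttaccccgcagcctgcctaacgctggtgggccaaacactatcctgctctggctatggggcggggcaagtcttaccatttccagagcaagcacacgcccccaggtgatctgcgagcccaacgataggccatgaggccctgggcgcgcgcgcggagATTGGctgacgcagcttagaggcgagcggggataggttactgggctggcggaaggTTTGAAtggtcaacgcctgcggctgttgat
KIF2C: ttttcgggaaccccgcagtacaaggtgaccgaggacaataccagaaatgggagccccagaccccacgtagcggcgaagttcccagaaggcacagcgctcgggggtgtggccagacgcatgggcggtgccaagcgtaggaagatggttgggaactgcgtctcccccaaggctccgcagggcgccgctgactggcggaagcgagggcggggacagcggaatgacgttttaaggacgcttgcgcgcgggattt
BUB1: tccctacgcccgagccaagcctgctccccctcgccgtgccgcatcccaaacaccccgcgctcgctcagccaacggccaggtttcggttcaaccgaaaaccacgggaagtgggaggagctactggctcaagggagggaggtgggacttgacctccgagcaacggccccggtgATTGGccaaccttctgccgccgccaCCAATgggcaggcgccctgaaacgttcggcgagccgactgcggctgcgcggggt
MAD2L1: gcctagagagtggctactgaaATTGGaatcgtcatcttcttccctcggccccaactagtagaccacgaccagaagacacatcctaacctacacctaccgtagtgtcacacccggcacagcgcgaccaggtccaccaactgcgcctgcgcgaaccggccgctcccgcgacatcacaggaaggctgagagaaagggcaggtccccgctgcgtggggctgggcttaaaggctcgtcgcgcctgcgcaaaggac
CDC25C had 4 windows, and the one shown was chosen because it holds both motifs. BUB1 and MAD2L1 each had 1 CHR match as well, which fell in the 50 bases after the start and is not printed. KIF2C had neither motif in its window, which says only that these letters are absent there.

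The targeted genes were checked first: DNMT1 measured 244.87, 249.97 and 231.01 TPM in WT replicates 1, 2 and 3 and 31.07, 30.81 and 46.82 TPM in DKO1. DNMT3B measured 8.22, 7.09 and 6.77 TPM in WT and 4.86, 4.85 and 3.56 TPM in DKO1, and both genes were lower in every DKO1 sample. Of 8 colon epithelial markers, 6 were at 1 TPM or above in every sample, EPCAM being the most abundant in DKO1, while CDX2 was below 1 TPM in DKO1 and VIL1 was below 1 TPM throughout. Summed over 8 mesenchymal markers the level was 241 to 281 TPM in WT and 749 to 923 TPM in DKO1, mostly VIM, with ZEB2 and CDH2 listed at 0 in every WT sample. Single markers went against their list's sum: mesenchymal ZEB1 measured 7.64 to 9.60 TPM in WT and 4.88 to 9.18 in DKO1, and COL3A1 was lower in DKO1 at under 1 TPM throughout. Epithelial CDH1 measured 2.63 to 3.54 TPM in WT and 9.56 to 10.11 in DKO1. Epithelial KRT20 measured 1.94 to 2.77 TPM in WT and 3.26 to 3.85 in DKO1. The epithelial sum was 942 to 1178 TPM in WT and 700.2 to 930.2 in DKO1. The part of these markers in the results was not tested. The 6 blood markers summed to at most 2.52 TPM with HBB at 0, and the 3 endothelial markers in the table to at most 0.83 TPM. DKO1 replicate 3 stood apart from the other DKO1 samples: mitochondrially encoded RNA took 21.2% of its TPM against 26.9% and 27.7% in DKO1 replicates 1 and 2 and 19.7% to 20.1% in WT, so main results are given with and without it.

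All 34 genes were well expressed, from 5.58 to 598.33 TPM over all samples, and all passed the filter of at least 1 TPM in at least 3 samples without relying on either genotype. They did not move as a block. In the limma test, fitted to log2(TPM + 1) over 13604 genes with Benjamini-Hochberg adjustment, 2 rose in DKO1 (CDC25C and KIF2C) and 2 fell (BUB1 and MAD2L1) at an adjusted p below 0.05. Over all tested genes 18.8% were called higher and 9.6% lower, 28.4% in all, so the members' 11.8% was below the background in this fit, though not in every alternative. Their median log2 difference, DKO1 minus WT, was -0.09 against 0.07 over all tested genes, and single members ran from -0.94 to 0.98. At an unadjusted p below 0.05, 7 members were higher and 10 lower, where 25.1% and 15.5% of all tested genes were. Of the 30 that were not called, 20 had a 95% interval within 2-fold in either direction. ANLN, AURKB, CDC20, CENPE, CENPF, ECT2, HMMR, KIF11, TOP2A and TTK had wider intervals, which included a 2-fold change.

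These counts depended on how the spread between samples was handled. Same-numbered WT and DKO1 replicates deviated together, and with the replicate number as a block 5 members were called higher (CDC25C, BIRC5, CENPA, KIF2C and KIF20A) and 8 lower (CDK1, BUB1, BUB1B, MAD2L1, TTK, HMMR, ECT2 and ANLN), against a background of 22.4% higher and 13.4% lower. Without DKO1 replicate 3, 3 were higher (CDC25C, BIRC5 and KIF2C) and 14 lower (CDK1, BUB1, BUB1B, MAD2L1, TTK, CENPE, CENPF, KIF11, DLGAP5, HMMR, KIF23, ECT2, ANLN and TOP2A), against 19.2% and 15.3% of all genes. Leaving out DKO1 replicate 1 gave 1 higher and 2 lower (15.7% and 6.19% of all genes), and leaving out DKO1 replicate 2 gave 4 and 2 (20.9% and 8.54%). Leaving out any of WT replicates 1, 2 and 3 gave 1 and 1, where 14.2%, 13.6% and 12.5% of all genes were higher and 4.44%, 3.85% and 4.04% lower. The split also moved with scaling, for the members and for all genes. Median-ratio scaling gave 1 member higher and 8 lower (16.8% and 12.8% of all genes), and quantile normalization gave 7 and 1 (13.4% and 14.3%). When each sample was rescaled after dropping its mitochondrial and spike-in rows, 7 were higher and 2 lower (23.1% and 7.65%). CDC25C was called higher and BUB1 lower in each of the 16 alternatives. In raw order, DKO1 lay wholly above WT for 9 members (CCNB1, CDC25C, AURKA, TPX2, BIRC5, CENPA, KIF2C, KIF20A and PRC1), where 27.5% of all tested genes did so, and wholly below WT for 8 (CDK1, BUB1, BUB1B, MAD2L1, TTK, KIF11, ECT2 and ANLN), where 17.8% did.

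**Figure D1:**
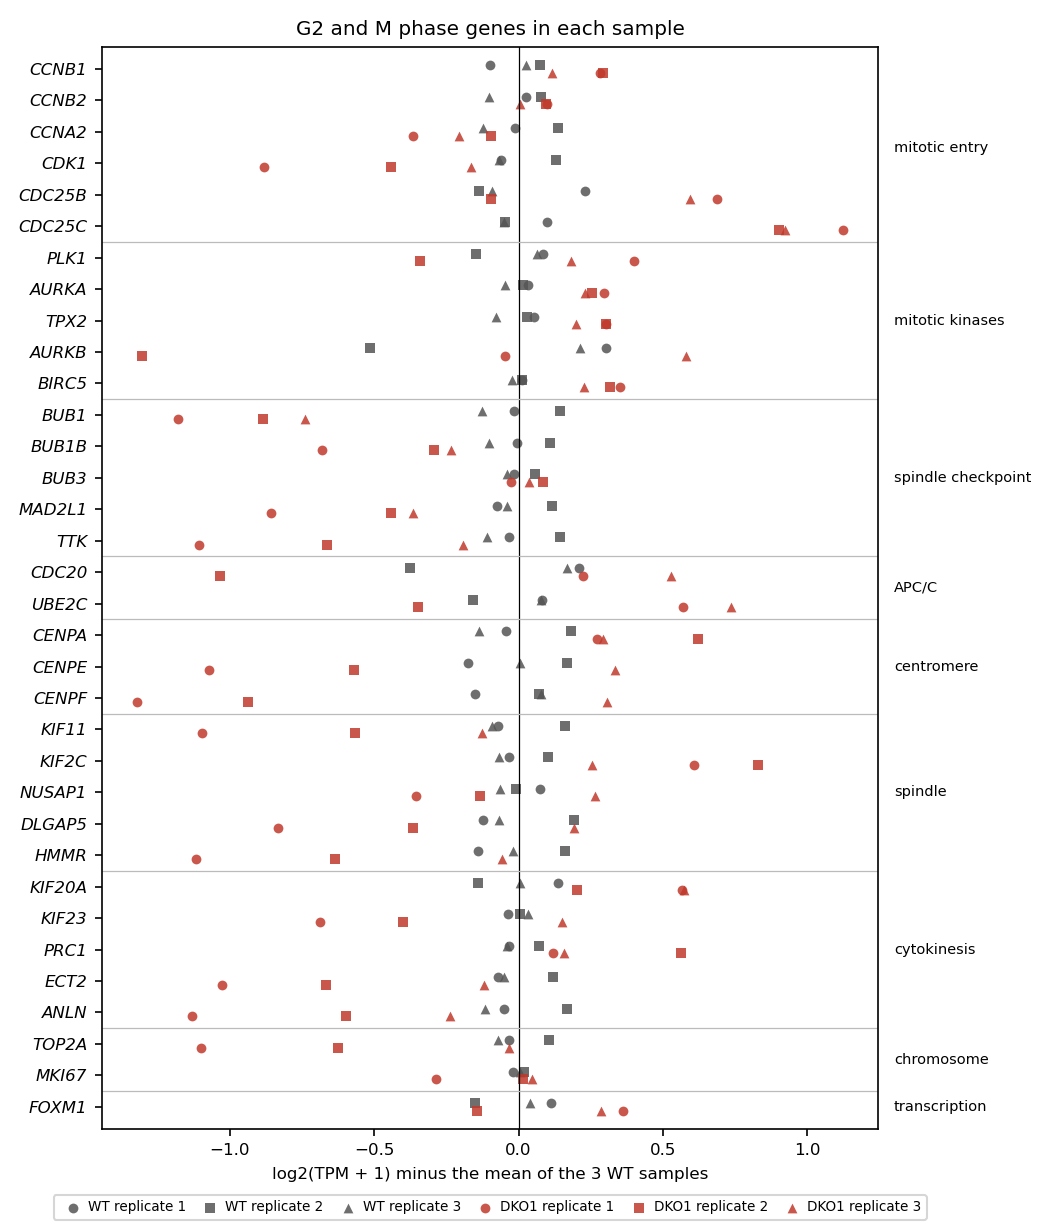
Each of the 34 genes in each of the 6 samples, as log2(TPM + 1) minus the mean of the 3 WT samples, grouped by role; grey is WT, red is DKO1, and circles, squares and triangles are replicates 1, 2 and 3. BUB1 and MAD2L1 in DKO1 lie left of WT and CDC25C and KIF2C right of it, while in 7 genes such as CENPF and TOP2A only the DKO1 triangle lies in or above the WT range.

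**Figure D2:**
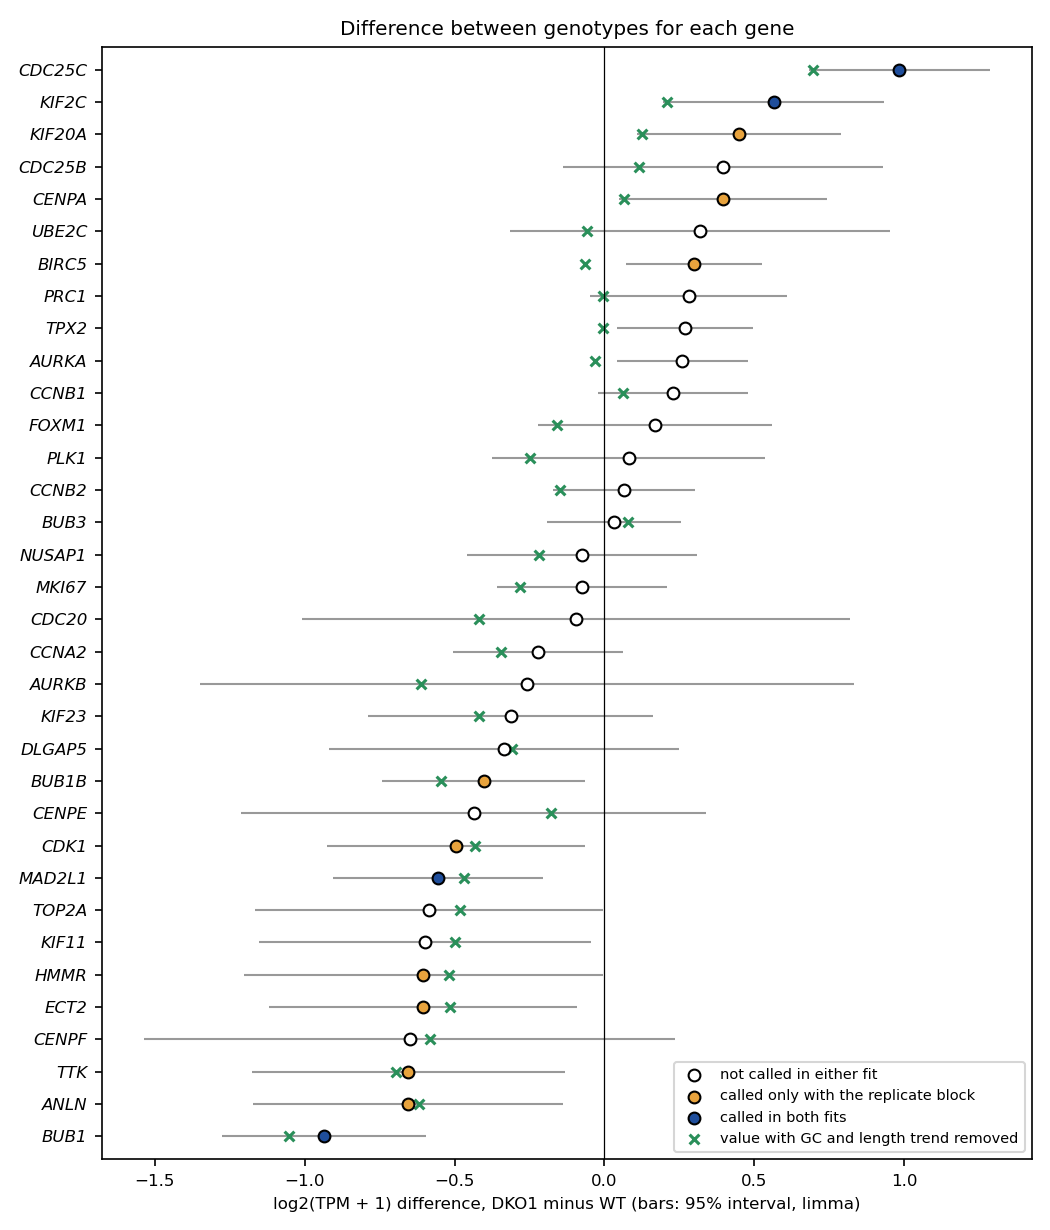
The log2(TPM + 1) difference, DKO1 minus WT, of each gene with its 95% interval from limma, ordered by size; filled points passed the test without and with the replicate block (blue) or with it but not without (orange), and green crosses are the difference after the trend in GC content and length was removed. The points run from -0.94 for BUB1 to 0.98 for CDC25C.

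Among the 6 genes of mitotic entry, CDC25C stood out. CDC25C (ENSG00000158402.14, chromosome 5), a phosphatase that activates CDK1, measured 15.66, 14.08 and 14.05 TPM in WT replicates 1, 2 and 3 and 32.97, 28.15 and 28.53 TPM in DKO1. Every DKO1 sample was above every WT sample, and each genotype's replicates lay close together. The mean was 2.05-fold higher in DKO1, a log2 difference of 0.98 with a standard error (SE) of 0.13 and an adjusted p of 0.00117 in limma. On the genome CDC25C overlaps FAM53C on the opposite strand, and whether the authors' counting used the strand is not given in the sources used here. FAM53C itself had a log2 difference of 0.34 (adjusted p = 0.106). The related phosphatase CDC25B was less even, at 26.36, 20.20 and 20.90 TPM in WT and 36.59, 20.86 and 34.25 TPM in DKO1, with DKO1 replicate 2 inside the WT range (log2 difference 0.40, adjusted p = 0.237), and it was called only without that sample.

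The cyclins and their kinase did not follow each other. CDK1, the kinase that cyclin B activates, measured 298.43, 340.67 and 296.95 TPM in WT and 168.55, 229.00 and 277.80 TPM in DKO1, so all DKO1 samples were lower but replicate 3 only slightly. Its log2 difference of -0.50 (SE 0.18) had an adjusted p of 0.0844, and of 0.0401 with the replicate block and 0.0189 without DKO1 replicate 3. CCNB1, cyclin B1 and the most abundant of the 34 RNAs, measured 456.00, 514.61 and 497.28 TPM in WT and 594.60, 598.33 and 529.82 TPM in DKO1. Here all DKO1 samples were above WT, by a log2 difference of 0.23 (adjusted p = 0.151) that was not called. CCNB2, cyclin B2, overlapped between genotypes at 121.73 to 137.86 TPM in WT and 131.02 to 139.96 TPM in DKO1. CCNA2, cyclin A2, ran from 127.00 to 152.43 TPM in WT and from 107.30 to 129.46 TPM in DKO1, also overlapping (log2 difference -0.22, adjusted p = 0.213). CCNA2 shares genomic sequence with EXOSC9 on the opposite strand. As a ratio within each sample, CCNB1 over CDK1 was 1.53, 1.51 and 1.68 in WT and 3.53, 2.61 and 1.91 in DKO1, and CCNB2 over CDK1 was 0.45, 0.41 and 0.41 in WT and 0.83, 0.61 and 0.47 in DKO1. Both ratios were higher in every DKO1 sample, with DKO1 replicate 3 nearest to WT. Such ratios, of partners chosen after their values were seen, do not depend on how a sample is scaled and are given without a test. They are not corrected for a trend in GC content, which was 37.0% in the CDK1 transcript and 43.2% in that of CCNB1. With the trend in GC content and length removed, the log2 differences were -0.43 in CDK1, 0.06 in CCNB1 and -0.15 in CCNB2.

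Of the 5 mitotic kinases and their activating partners, none was called in the main test and 1 was called with the replicate block. AURKA, a kinase of centrosome and spindle assembly, measured 118.90, 117.64 and 112.62 TPM in WT and 143.13, 138.94 and 136.73 TPM in DKO1. TPX2, which activates AURKA on the spindle, measured 212.39, 208.88 and 193.81 TPM in WT and 252.86, 253.18 and 235.57 TPM in DKO1. For both genes the genotypes did not overlap and the replicates were tight, with log2 differences of 0.26 (adjusted p = 0.0768) and 0.27 (adjusted p = 0.0785). TPX2 over AURKA was 1.76 ± 0.04 in WT and 1.77 ± 0.05 in DKO1 (SD, n = 3), the least difference between genotypes among the 9 ratios computed. BIRC5 encodes survivin, a subunit of the chromosomal passenger complex, and measured 92.81, 92.97 and 90.66 TPM in WT and 117.77, 115.10 and 108.11 TPM in DKO1. It did not overlap between genotypes, and its log2 difference of 0.30 (SE 0.10) had an adjusted p of 0.0549, falling just under the threshold with the replicate block and to 0.0346 without DKO1 replicate 3. AURKB, the kinase of the same complex, behaved otherwise, at 19.03, 10.37 and 17.84 TPM in WT and 14.72, 5.58 and 23.27 TPM in DKO1. In both genotypes replicate 2 was the lowest, and the DKO1 values spanned more than the whole WT range (log2 difference -0.26, 95% interval -1.35 to 0.83). PLK1, Polo-like kinase, showed the same low replicate 2, at 113.60, 96.52 and 112.05 TPM in WT and 141.63, 84.37 and 121.70 TPM in DKO1, with a log2 difference of 0.08 (adjusted p = 0.791).

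Both falls that passed the main test were in the spindle checkpoint, which has 5 genes among the members. BUB1 (ENSG00000169679.10, chromosome 2), a kinase that recruits checkpoint proteins to kinetochores, measured 111.84, 124.83 and 103.29 TPM in WT and 49.35, 60.73 and 67.17 TPM in DKO1. The genotypes were far apart, and the mean fell 1.92-fold, a log2 difference of -0.94 (SE 0.14, limma adjusted p = 0.00281). MAD2L1 (ENSG00000164109.9, chromosome 4) encodes MAD2, which binds CDC20 and blocks it. It measured 342.67, 390.60 and 350.55 TPM in WT and 198.51, 265.10 and 279.47 TPM in DKO1, all DKO1 samples being lower. The mean fell 1.46-fold, a log2 difference of -0.56 (SE 0.15, adjusted p = 0.0298). That call was lost without WT replicate 1, 2 or 3 (adjusted p = 0.0764, 0.113 and 0.092), without the expression filter (0.0519) and after quantile normalization (0.0539).

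BUB1B encodes BUBR1, the pseudokinase of the checkpoint complex, and measured 146.71, 159.05 and 137.21 TPM in WT and 91.48, 120.09 and 125.18 TPM in DKO1. TTK, also known as MPS1, starts checkpoint signalling at unattached kinetochores and measured 108.36, 122.84 and 102.75 TPM in WT and 51.03, 69.74 and 97.01 TPM in DKO1. Both lay wholly below WT in DKO1 without passing the main test, with log2 differences of -0.40 (adjusted p = 0.0767) and -0.65 (adjusted p = 0.0648), and both were called lower with the replicate block (0.048 and 0.0372) and without DKO1 replicate 3 (0.0433 and 0.00795). BUB3, the adaptor that carries BUB1 and BUBR1 to kinetochores, was level at 274.78, 289.38 and 270.21 TPM in WT and 272.96, 294.82 and 285.36 TPM in DKO1. Its log2 difference was 0.03 with a 95% interval of -0.19 to 0.25. Measured against this partner, BUB1 over BUB3 was 0.41, 0.43 and 0.38 in WT and 0.18, 0.21 and 0.24 in DKO1, and BUB1 over BUB1B was 0.77 ± 0.02 in WT and 0.53 ± 0.02 in DKO1 (SD, n = 3). The BUB1 transcript was thus lower in DKO1 relative to both proteins' transcripts, with no overlap between genotypes in either ratio.

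**Figure D3:**
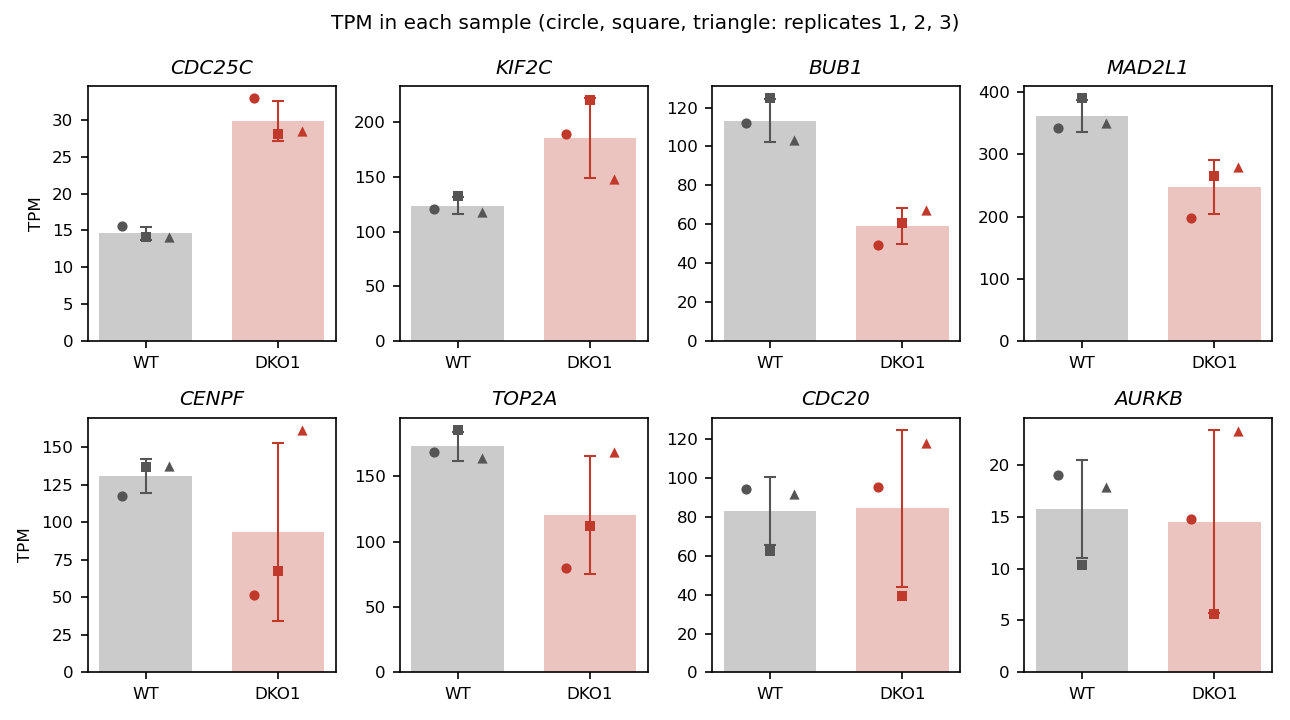
TPM in each sample for 8 genes, with bars at the group mean and error bars of 1 SD over 3 samples; circles, squares and triangles are replicates 1, 2 and 3. The upper 4 genes passed the main test, and the lower 4 show DKO1 replicate 3 above the other DKO1 replicates (CENPF, TOP2A) or a low replicate 2 in both genotypes (CDC20, AURKB).

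The 2 members of the APC/C system were dominated by 1 replicate number. CDC20, the activator that the checkpoint blocks, measured 94.62, 62.75 and 92.01 TPM in WT and 95.59, 39.40 and 118.24 TPM in DKO1. UBE2C, the ubiquitin-conjugating enzyme that works with the APC/C, measured 132.53, 112.13 and 132.40 TPM in WT and 186.67, 98.26 and 209.31 TPM in DKO1. In both genes and both genotypes replicate 2 was the lowest, and DKO1 replicate 2 was below all WT samples while DKO1 replicates 1 and 3 were above them. Their log2 differences were -0.10 (95% interval -1.01 to 0.82) and 0.32 (-0.31 to 0.95), and UBE2C was called higher only without DKO1 replicate 2. CDC20 has a processed pseudogene, CDC20P1, that was itself listed at a mean of 5.93 TPM, so reads of the 2 copies may have been split.

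The 3 centromere genes parted by gene. CENPA, the histone variant that marks centromeres, measured 34.17, 40.15 and 32.01 TPM in WT and 42.83, 54.86 and 43.41 TPM in DKO1, with no overlap. Its log2 difference of 0.40 (SE 0.15) had an adjusted p of 0.0872 and, with the replicate block, of 0.03, replicate 2 being the highest in both genotypes. CENPE, a kinesin that moves chromosomes to the spindle equator, measured 22.21, 28.42 and 25.28 TPM in WT and 11.44, 16.64 and 32.01 TPM in DKO1. CENPF, a large kinetochore protein, measured 117.37, 136.99 and 137.61 TPM in WT and 51.55, 67.56 and 161.56 TPM in DKO1. In both of these, DKO1 replicates 1 and 2 were below every WT sample and DKO1 replicate 3 above every one. With all samples the CENPF difference was -0.65 (95% interval -1.54 to 0.23, adjusted p = 0.241), and without DKO1 replicate 3 it was -1.13 (adjusted p = 0.00235), while that of CENPE went from -0.44 (adjusted p = 0.368) to -0.82 (adjusted p = 0.0207).

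KIF2C was the only one of the 5 spindle genes to pass the main test. KIF2C (ENSG00000142945.8, chromosome 1) encodes MCAK, a kinesin that takes microtubules apart at kinetochores, and measured 120.78, 132.91 and 117.97 TPM in WT and 189.07, 220.52 and 147.80 TPM in DKO1. All DKO1 samples were above WT, replicate 3 the least, and the mean was 1.5-fold higher, a log2 difference of 0.56 (SE 0.16, limma adjusted p = 0.034). The call was lost without WT replicate 1, 2 or 3 (adjusted p = 0.108, 0.0738 and 0.124), without DKO1 replicate 1 or 2 (0.0903 and 0.0608), without the filter (0.0568) and after median-ratio scaling (0.106), and the difference shrank to 0.21 (adjusted p = 0.35) once the trend in GC content and length was removed.

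The other 4 spindle genes were lower in DKO1 replicates 1 and 2 than in every WT sample. KIF11, the kinesin that pushes spindle poles apart, measured 64.16, 75.59 and 63.30 TPM in WT and 30.97, 45.17 and 61.66 TPM in DKO1. It did not overlap, with a log2 difference of -0.60 (adjusted p = 0.0999, or 0.0155 without DKO1 replicate 3). HMMR, a protein of the spindle poles, measured 45.69, 56.61 and 49.76 TPM in WT and 22.72, 32.10 and 48.48 TPM in DKO1, where replicate 3 reached the WT range (log2 difference -0.60, adjusted p = 0.12, or 0.0488 with the replicate block and 0.0118 without replicate 3). DLGAP5, which stabilises spindle microtubules, measured 65.23, 81.44 and 67.89 TPM in WT and 39.50, 55.02 and 81.52 TPM in DKO1. NUSAP1, a microtubule-bundling protein, measured 175.75, 165.70 and 159.73 TPM in WT and 130.39, 151.91 and 200.95 TPM in DKO1. For DLGAP5 and NUSAP1, DKO1 replicate 3 was above all WT samples, only barely in DLGAP5, and the other DKO1 samples below, with differences of -0.34 (adjusted p = 0.357) and -0.07 (adjusted p = 0.773). Without DKO1 replicate 3 that of DLGAP5 was -0.60 (adjusted p = 0.0424), and NUSAP1 was not called.

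Of the 5 cytokinesis genes none was called in the main test, and 3 were called with the replicate block, 1 higher and 2 lower. KIF20A, a kinesin of the central spindle, measured 51.83, 42.60 and 47.18 TPM in WT and 70.13, 54.31 and 70.58 TPM in DKO1. The genotypes did not overlap, and the log2 difference of 0.45 (SE 0.14) had an adjusted p of 0.0559, or 0.0193 with the block. KIF20A overlaps BRD8 and CDC23 on the opposite strand, whose own differences were 0.18 (adjusted p = 0.471) and -0.02 (adjusted p = 0.931). PRC1, which bundles the antiparallel microtubules of the midzone, measured 203.38, 218.69 and 202.46 TPM in WT and 226.17, 307.96 and 232.35 TPM in DKO1, a difference of 0.28 (adjusted p = 0.178) with replicate 2 the highest in both genotypes.

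ECT2, the exchange factor that activates RhoA at the cleavage site, measured 145.66, 166.47 and 147.88 TPM in WT and 74.50, 96.10 and 140.62 TPM in DKO1. ANLN, anillin, a scaffold of the contractile ring, measured 150.62, 175.30 and 143.99 TPM in WT and 70.78, 102.75 and 132.13 TPM in DKO1. Both lay below WT in every DKO1 sample, with log2 differences of -0.60 (adjusted p = 0.0781) and -0.66 (adjusted p = 0.0624) that were called with the block (0.0378 and 0.0316) and without DKO1 replicate 3 (0.00549 and 0.0128). ANLN overlaps KIAA0895 on the opposite strand. KIF23, the kinesin of centralspindlin, which recruits ECT2, measured 134.23, 138.26 and 141.22 TPM in WT and 85.30, 104.15 and 153.03 TPM in DKO1, with replicate 3 above WT (log2 difference -0.31, adjusted p = 0.293, or -0.54 and 0.0148 without that sample).

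The remaining genes act on chromosomes and transcription. TOP2A, the topoisomerase that untangles sister chromatids, measured 168.50, 185.64 and 164.18 TPM in WT and 79.88, 111.59 and 168.75 TPM in DKO1. Its DKO1 replicates 1 and 2 were below WT and replicate 3 within it, and the difference of -0.59 (adjusted p = 0.121) became -0.86 (adjusted p = 0.0082) without DKO1 replicate 3. MKI67, the Ki-67 antigen used as a marker of dividing cells, measured 111.34, 114.37 and 113.28 TPM in WT and 92.42, 114.21 and 116.62 TPM in DKO1. DKO1 replicate 1 was below WT, replicate 2 within it and replicate 3 above it, with a log2 difference of -0.08 and a 95% interval of -0.36 to 0.21. FOXM1, a transcription factor that binds the promoters of many of these genes, measured 32.34, 26.81 and 30.70 TPM in WT and 38.69, 26.94 and 36.66 TPM in DKO1, overlapping (difference 0.17, adjusted p = 0.493). FOXM1 overlaps ITFG2 and RHNO1 on the opposite strand.

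Across the 34 genes, the DKO1 replicates differed from each other in recurring orders. DKO1 replicate 1 was the lowest of its group for 20 members, where 40.1% of all tested genes showed this order, and DKO1 replicate 3 was the highest for 20, where 51.5% did. In 7 members (CENPE, CENPF, NUSAP1, DLGAP5, HMMR, KIF23 and TOP2A) DKO1 replicates 1 and 2 were below all WT samples and replicate 3 was not, an order held by 9.05% of all tested genes. In another 7 (CDC25B, PLK1, AURKB, CDC20, UBE2C, KIF20A and FOXM1) replicate 2 was the lowest in both genotypes, as it was in 26.7% of all tested genes. The summed TPM of the 34 was 4478.4, 4753.8 and 4437.7 in WT and 3952.0, 4252.5 and 4756.7 in DKO1. DKO1 replicate 3 was thus barely above the WT range and the other DKO1 samples were below it. The members' median log2(TPM + 1) was 6.90, 6.96 and 6.87 in WT and 6.48, 6.67 and 6.96 in DKO1, with DKO1 replicate 3 in the WT range. Over all tested genes this median was 3.61, 3.50 and 3.54 in WT and 3.63, 3.61 and 3.86 in DKO1, highest in DKO1 replicate 3. The members' sums and medians are not corrected for such a shift of a whole sample. Gene by gene, the median difference was -0.09 over the members and -0.11 over 27 genes of the G1/S transition. Within each sample, the members' median minus the G1/S genes' median was 1.189, 1.118 and 1.037 in WT and 0.435, 0.882 and 0.901 in DKO1. This gap, which does not depend on how a sample is scaled, was smaller in every DKO1 sample and was not tested. The G1/S genes' own median was 5.71, 5.85 and 5.83 in WT and 6.05, 5.78 and 6.06 in DKO1. It was above WT in DKO1 replicates 1 and 3, although 18 of the 27 genes had a negative difference. The smaller gap thus does not mean that single members fell more than G1/S genes. With the GC and length trend removed, the gene-by-gene medians were -0.27 over the members and -0.38 over the G1/S genes.

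The members' differences were compared with base composition. The GC content of their longest GENCODE transcript had a median of 43.2% and ran from 35.3% in CENPE to 59.3% in CDC25B, against a median of 47.05% over all tested genes. The DKO1 minus WT difference was higher at higher GC content over the 34 genes, with Pearson's r of 0.62 and Spearman's rho of 0.73. This is a description over genes that share the same 6 libraries. It varied by sample: against the WT mean, r was 0.77 for DKO1 replicate 1 and 0.56 for replicate 3, but 0.20 for replicate 2, where it was 0.12 over 93 other G2 and M genes and -0.13 over the G1/S genes. Over 93 other G2 and M genes r was 0.58, over the 27 G1/S genes 0.65, and over the 13225 tested genes with a matched transcript 0.16. Below 42% GC, 11 of 12 members had a negative difference, with a median of -0.59, where 64.9% of all tested genes in that range did, with a median of -0.20. BUB3 was the exception. From 42% to 47% GC, 5 of 10 members were negative, among them BUB1, and CDC25C belonged to this range too. Above 47% GC, 3 of 12 members were negative (AURKB, CDC20 and MKI67) and the median was 0.29, where 32.4% of all tested genes were negative and the median was 0.20.

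A relation to GC content also appeared between replicates of 1 genotype. Over the 34 genes, DKO1 replicate 1 minus DKO1 replicate 3 correlated with GC content at r = 0.67. This r was 0.41 over the 93 other G2 and M genes, -0.17 over the G1/S genes and 0.19 over all tested genes. For WT replicate 2 minus the mean of the other WT samples, r was -0.78 over the 34 genes. There it was -0.80 over the other G2 and M genes, -0.68 over the G1/S genes and -0.48 over all tested genes. Transcript length was related more weakly to the DKO1 minus WT difference (r = -0.40). When a smooth trend in GC content and length was removed from each sample, a step chosen after seeing the data, CDC25C was the only member called higher and 11 were called lower, namely CCNA2, CDK1, BUB1, BUB1B, MAD2L1, TTK, KIF11, HMMR, ECT2, ANLN and TOP2A. In that fit 16.1% of all genes were called higher and 24.3% lower, and the median of all genes moved from 0.07 to -0.12, beside a members' median of -0.27. With the replicate block added, 1 was higher and 16 lower, against 18.4% and 30.0%. The members' remaining correlation with GC content was 0.36. BUB1 then differed by -1.05 (SE 0.09) and CDC25C by 0.69 (SE 0.11), so these calls were also made without the trend. The part of base composition in the other members' differences was not tested beyond this fit.

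**Figure D4:**
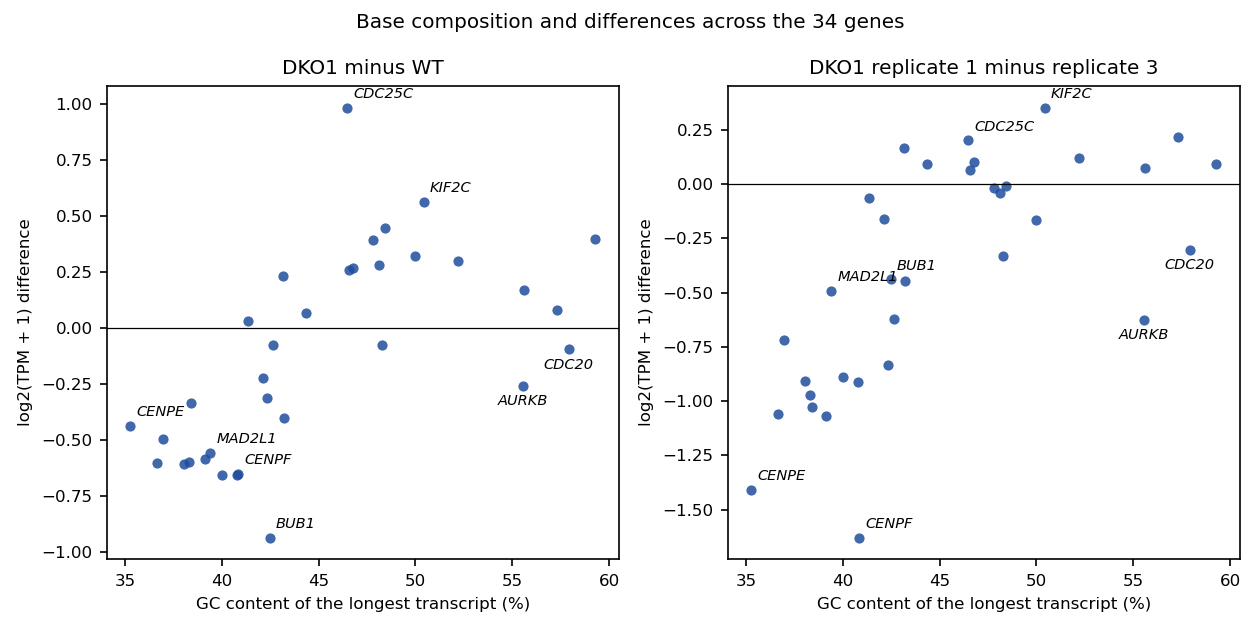
The GC content of the longest transcript of each of the 34 genes (horizontal, percent) against its log2(TPM + 1) difference, DKO1 minus WT on the left and DKO1 replicate 1 minus DKO1 replicate 3 on the right. Both differences are higher at higher GC content, with Pearson's r of 0.62 and 0.67 over the 34 genes. Over all tested genes r was 0.16 and 0.19.

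Of the 93 other G2 and M genes listed, 7 were called higher and 9 lower, with a median difference of -0.06, and 10 and 17 were called with the replicate block. Of all tested genes, 18.8% and 9.6% were called, and 22.4% and 13.4% with the block. Omitting DKO1 replicate 1 gave 4 higher and 5 lower, omitting DKO1 replicate 2 gave 11 and 6, and omitting DKO1 replicate 3 gave 6 and 25. Omitting WT replicates 1, 2 and 3 in turn gave 3, 2 and 2 higher and 2, 0 and 0 lower. Genes that rose included KIF4A, a midzone kinesin that works with PRC1 (48.69 ± 2.72 TPM in WT and 72.38 ± 3.18 in DKO1, log2 difference 0.56, adjusted p = 0.00693), PTTG1, securin, which holds back sister separation (0.46, adjusted p = 0.0275), and CCNF, cyclin F (0.48, adjusted p = 0.0319). TRIP13, an enzyme that disassembles the MAD2 checkpoint complex, fell from 136.67 ± 4.55 to 100.34 ± 9.47 TPM (SD, n = 3, difference -0.45, adjusted p = 0.0219). CENPU, a centromere protein (-0.57, adjusted p = 0.102), and INCENP, the scaffold shared by AURKB and BIRC5 (0.52, adjusted p = 0.0922), were not called with all samples but were with the block (0.0468 and 0.0156). Of the 16 alternatives, KIF4A was called higher in 16, PTTG1 in 9, CCNF in 7 and INCENP in 3. TRIP13 was called lower in 11 and CENPU in 5. With the GC and length trend removed, PTTG1 differed by 0.10 and CCNF by 0.21 (limma adjusted p = 0.453 and 0.407). The rest of the genes chosen for naming were not called in the main test: NDC80, CDC27, FZR1, ASPM, WEE1 and PKMYT1 had differences from -0.63 in ASPM to 0.06 in PKMYT1. ASPM and CDC27 were each called lower in 2 of the 16 alternatives. Without DKO1 replicate 3 the ASPM difference was -0.97 (limma adjusted p = 0.00705).

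2 further genes, picked after their values were seen, belong beside the members. HJURP, the chaperone that places CENPA at centromeres, measured 65.12, 74.78 and 63.13 TPM in WT and 126.85, 144.44 and 131.04 TPM in DKO1, far apart and with replicate 2 highest in both genotypes, as in CENPA. Its difference was 0.98 (SE 0.12, limma adjusted p = 0.000673), and it was called higher in all 16 alternatives. ZWILCH, of the complex that brings checkpoint proteins and dynein to kinetochores, measured 85.72, 98.75 and 105.71 TPM in WT and 38.67, 54.92 and 65.74 TPM in DKO1. No sample overlapped, the difference was -0.88 (SE 0.20, adjusted p = 0.0151), and it was called lower in 14 of the 16 alternatives.

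Among 11 genes of the MuvB and DREAM complexes, 1 rose (LIN52) and 3 fell (LIN9, LIN54 and RBL1), where 18.8% of all tested genes were called higher and 9.6% lower, with a median of -0.18. LIN9, a MuvB subunit, measured 26.11, 30.77 and 30.12 TPM in WT and 11.57, 14.06 and 20.17 TPM in DKO1, wholly below WT (difference -0.91, SE 0.21, adjusted p = 0.0145). MYBL2, RBL2 and E2F4 were not called in the main test, at -0.34 (adjusted p = 0.541), 0.44 (adjusted p = 0.0912) and -0.23 (adjusted p = 0.615). MYBL2 and E2F4 were each called lower in 2 of the 16 alternatives, and RBL2 higher in 1. Genes of this list called lower numbered 1 without DKO1 replicate 1, DKO1 replicate 2 or WT replicate 1, and 0 without WT replicate 2 or 3. LIN52 was not called without DKO1 replicate 1 or 2 or WT replicate 1, 2 or 3. Of 27 G1/S genes 0 rose and 5 fell (CCNE2, CDC6, MCM6, RRM1 and POLA1) in limma, with 0 higher and 8 lower at an unadjusted p below 0.05 and a median of -0.11. Over all tested genes 18.8% and 9.6% were called, and 25.1% and 15.5% had an unadjusted p below 0.05. CCNE1, E2F1, MCM2, PCNA and RRM2 were not called in the main test, with differences from -0.22 in PCNA to 0.19 in CCNE1. PCNA was called lower in 3 of the 16 alternatives and MCM2 in 1. Without WT replicate 1, 2 or 3 the G1/S genes called lower numbered 1, 2 and 1.

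Of 7 inhibitors of cyclin-dependent kinases, which restrain the cycle, 4 were called higher and 0 lower in limma, with 5 higher and 0 lower at an unadjusted p below 0.05, against the same shares of all tested genes. CDKN1A, the p21 inhibitor, measured 2.42, 1.94 and 2.23 TPM in WT and 10.20, 6.57 and 8.50 TPM in DKO1. The groups were far apart at low levels, and the log2 difference was 1.54 (SE 0.19, limma adjusted p = 0.000779). CDKN1C, CDKN2C and CDKN2D were the other called genes, with differences from 1.25 to 1.82. CDKN1B and CDKN3, the latter a phosphatase that acts on cyclin-dependent kinases, were not called at 0.28 (adjusted p = 0.246) and 0.07 (adjusted p = 0.723).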

How the data were processed

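RNA of 3 WT and 3 DKO1 samples was analysed from the deposited TPM table. Per the submitters' processing notes, the authors used STAR 2.5.3a, RSEM 1.2.21, edgeR 3.12.1, Trim Galore 0.4.0 and FastQC on hg19 and GRCh37, in roles and order not given there. For the annotation release and strand use, nothing is given in the sources used here. The labels do not say whether replicates were separate cultures, and the p-values then reflect sample-to-sample spread that may be technical only. TPM keeps no depth, so sequencing depth is unknown and no counting interval is given.

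Values were tested as log2(TPM + 1) with limma 3.58.1 in R 4.3.3, with genotype as its term and the variance modelled as a trend, over the 13604 human genes reaching 1 TPM in 3 or more samples, adjusted by Benjamini-Hochberg and called below 0.05; the 77 rows named like synthetic spike-ins were left out. The script was tested on simulated data. Fold changes on this scale understate those of low genes. Same-numbered WT and DKO1 samples deviated together (correlations of their deviations 0.35, 0.572 and 0.267, other combinations -0.383 to 0.128), so a fit with the replicate number as a block is given beside the main one. Other alternatives were a pseudocount of 0.1, other filters and scalings, no variance trend, leaving out each sample, and, added after seeing the data, removal of a spline trend in GC content and length (5 degrees of freedom each, 13225 genes) without and with the block. GC content, length and overlaps came from GENCODE release 29 on GRCh38, matched by identifier, and promoters from RefSeq. Members, gene lists and the genes to be named (all 34 members and a preset selection of 26 others) were chosen with earlier results of these data known, and several lists include genes related to members in function.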

Additional observations from a re-analysis of the deposited data

How the results depend on the processing

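Of 544 member values over the 16 alternatives, 435 kept their direction and side of the threshold, 65 newly passed it, 14 no longer did (KIF2C and MAD2L1) and 30 changed sign, all in members not called with all samples. Members called higher and lower numbered 2 and 2 at first and stayed so with a pseudocount of 0.1, a mean of at least 5 TPM and no variance trend. They were 5 and 8 with the replicate block, 1 and 8 with median-ratio scaling, 7 and 1 with quantile normalization, 7 and 2 without mitochondrial and spike-in rows, 2 and 1 with no filter, 1 and 11 with the GC and length trend removed, and 1 and 16 with the replicate block added to that. Leaving out 1 sample gave 1 to 4 higher and 1 to 14 lower. The median of all tested genes, 0.07, moved to -0.07 with quantile normalization, to 0.17 without mitochondrial and spike-in rows and to -0.12 with the trend removed.

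The 93 other G2 and M genes, 7 higher and 9 lower at first, gave 17 lower with the replicate block, 4 and 17 with median-ratio scaling, 15 higher without mitochondrial and spike-in rows, 5 lower with no filter, 4 and 25 with the trend removed and 36 lower with trend removal and replicate block. Leaving out 1 sample gave 2 to 11 higher and 0 to 25 lower. The G1/S genes gave 15 lower with the trend removed and 17 with the block added, and 0 to 1 higher and 1 to 6 lower with 1 sample left out. The MuvB and DREAM genes gave 0 higher with the trend removed, with median-ratio scaling and with quantile normalization, 6 lower with the trend removed and 7 with the block added, and 0 to 1 higher and 0 to 3 lower with 1 sample left out. DNMT3B, at -0.63, gave -0.56 without mitochondrial and spike-in rows (adjusted p = 0.0645 in limma) and -0.69 to -0.51 with 1 sample left out, its call being lost without DKO1 replicate 1 or WT replicate 1, 2 or 3. The causes were not tested.

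Signs changed only for genes that limma did not call. With the GC and length trend removed, without and with the replicate block, the log2 differences became -0.15 in CCNB2, -0.25 in PLK1, -0.031 in AURKA, -0.005 in TPX2 and PRC1, -0.064 in BIRC5, -0.057 in UBE2C and -0.16 in FOXM1, and outside the members -0.016 in WEE1, -0.15 in PKMYT1, -0.18 in CCNE1, -0.18 in E2F1, -0.082 in RRM2, -0.034 in CDKN1B and -0.14 in CDKN3. Median-ratio scaling gave -0.009 in CCNB2 and PKMYT1, -0.043 in BUB3, -0.038 in WEE1 and -0.004 in CDKN3. Quantile normalization gave 0.018 in CDC20, 0.068 in NUSAP1, 0.056 in MKI67, -0.28 in PKMYT1 and -0.34 in E2F1. Without mitochondrial and spike-in rows the values were 0.015 in CDC20, 0.037 in NUSAP1, 0.035 in MKI67 and 0.046 in FZR1. With 1 sample left out, PLK1 ran from -0.079 to 0.29, AURKB from -0.68 to 0.27, CDC20 from -0.41 to 0.38, NUSAP1 from -0.25 to 0.065 and MKI67 from -0.14 to 0.03. The same ranges were -0.42 to 0.029 in NDC80, -0.27 to 0.32 in FZR1, -0.032 to 0.078 in WEE1, -0.30 to 0.49 in PKMYT1, -0.59 to 0.094 in MYBL2, -0.47 to 0.092 in E2F4, -0.27 to 0.40 in E2F1, -0.35 to 0.27 in MCM2 and -0.031 to 0.15 in CDKN3. Depth is not recorded in TPM, so its limit on these values is unknown.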
